A study of Mus musculus with 4 samples.

Results

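The adherens junction and desmosome genes of the mouse blastocyst comprised 10 genes, chosen by name: Cdh1, Ctnnb1, Jup, Ctnna1, Ctnnd1, Epcam, Dsg2, Dsc2, Dsp and Pkp2. All 10 were found once in every library, among 20714 gene symbols listed in both assays. The data were 4 libraries of wild-type blastocysts, not treated beyond the collection and culture described below. Of these, 2 were of mRNA (polyA RNA, Smart-seq2) and 2 of ribosome-protected fragments (RPF, Ribo-seq). RNA-seq measures how much transcript of a gene is present, and Ribo-seq measures how many ribosomes were sitting on coding sequence. The second set beside the first gives RPF relative to mRNA, called ribosome loading here. The assays used different library methods, and the labels do not say that they used the same embryos. Differences of method or of embryos cannot be told apart from loading in these data. Levels are in FPKM, fragments scaled by gene length and by the total mapped in a library. Length was taken over transcripts for RNA-seq and over coding sequence for Ribo-seq. Values per length allow only an approximate comparison between genes, since the length assumed can shift a level, as described below for Epcam.

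The embryos came from 4-week-old C57BL/6J females mated with PWK/PhJ males, according to the protocol, while the strain label reads C57BL/6N x PWK. Ovulation in the females had been induced by injection of the gonadotropins PMSG and hCG. The embryos were taken at the 8-cell stage and grown to blastocysts in KSOM medium, and the zona pellucida was dissolved with acidic Tyrode's solution. Each library pooled whole embryos, so trophectoderm, the outer epithelium, and the inner cell mass were lysed together. In such bulk samples, fewer cells of a type and less RNA per cell cannot be told apart. The labels do not say that replicates were separate pools of embryos, and p-values therefore measure only the spread between these libraries, which may be technical.

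Adherens junctions join neighbouring cells through E-cadherin, whose tail binds β-catenin or plakoglobin, both partners of α-catenin, the link to actin. Desmosomes use other cadherins, the desmogleins and desmocollins, whose tails bind plakoglobin and plakophilin, and desmoplakin ties this plaque to keratin filaments. E-cadherin brings blastomeres together at compaction, and both kinds of junction hold the trophectoderm together as the blastocyst cavity expands.

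The labelled stage was checked against marker genes. All 8 trophectoderm markers reached a mean of 1 FPKM in both assays, with Cdx2, a trophectoderm transcription factor, at 21.6 and 21.0 FPKM in the RNA-seq libraries and 264 and 319 FPKM in the Ribo-seq libraries. Of 8 cumulus or granulosa cell markers 7 were listed at 0 in all 4 libraries, as were 6 of 8 oocyte markers and 2 of 4 blood cell markers. Between 8681 and 9736 gene symbols reached 1 FPKM in a library. From the steps between low FPKM values, the totals came to about 5450819 and 5166078 mRNA fragments and 533547 and 484287 RPFs, so the RPF levels carry the larger counting error. The mRNA totals are the less certain, since only 65.3% and 65.0% of low mRNA values lay within 0.1 of a whole fragment, against 86.0% and 85.3% of RPF values and 20% by chance.

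The bases around the start codon, where ribosomes begin, are shown for the genes whose ribosome loading is set side by side below. They were read from GENCODE transcripts annotated on the NCBIM37 genome, using for each gene the transcript with the longest coding sequence. They run from 9 bases before the start codon to 9 bases after it, 5′ to 3′ on the coding strand, and capitals mark the start codon. They lie at chr8:109127395-109127397 (plus strand) for Cdh1, chr9:120859339-120859341 (plus) for Ctnnb1, chr11:100247692-100247694 (minus) for Jup, chr2:84464619-84464621 (minus) for Ctnnd1, chr17:88036159-88036161 (plus) for Epcam and chr13:38243458-38243460 (plus) for Dsp, positions being those of the start codon.
Cdh1: gggtccgccATGggagcccgg
Ctnnb1: gcgtggacaATGgctactcaa
Jup: cgggccaccATGgaggtgatg
Ctnnd1: cttaccttcATGgacgactca
Epcam: gcgcgcagcATGgcgggtccc
Dsp: accgcagacATGagctgcaac

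Both bases of the consensus for efficient initiation, a purine 3 bases before the start codon and a G directly after it, were present in 7 of the 10 genes and in 41.3% of 19572 mouse genes. A purine at the first of these places was found in 9 of 10 genes (84.0% of all genes), with Ctnnd1 the exception. Ctnnd1 has 24 coding transcripts, of which only the start of the longest coding sequence was read. G followed the start codon in 8 of 10 genes (49.4% of all genes), and Ctnna1 and Dsp had A there. Cdh1 and Jup, which stood at opposite ends of the ribosome loading described below, both had a purine and a G at these places.

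Cdh1 (NCBIM37 chr8:109127251-109194146, plus strand) encodes E-cadherin, the transmembrane adhesion molecule of the adherens junction. Its mRNA level was 33.1 and 33.8 FPKM in RNA-seq replicates 1 and 2, and its RPF level was 317 and 371 FPKM in Ribo-seq replicates 1 and 2. The 2 RNA-seq libraries were nearly equal, and Ribo-seq replicate 2 was the higher of its pair. FPKM of a library summed to 502995 and 515004 in RNA-seq and to 1903659 and 1958704 in Ribo-seq, so that an RPF level above an mRNA level is no property of a single gene, and the assays are compared below only relative to other genes. Cdh1 held the fifth place among the 10 genes in mRNA, at 33.5 ± 0.504 FPKM (SD, n = 2), and the second in RPF, at 344 ± 38.3 FPKM (SD, n = 2). It rested on about 415 and 441 RPFs, for which the exact Poisson 95% intervals, covering counting error only, were 287 to 349 FPKM and 337 to 407 FPKM.

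Ctnnb1 (chr9:120838334-120869625, plus) encodes β-catenin, which binds the E-cadherin tail and also acts in Wnt signalling. It measured 35.9 and 33.2 FPKM in the RNA-seq libraries, against 182 and 180 FPKM in the Ribo-seq libraries. Its mRNA level overlapped that of Cdh1 between libraries, while its RPF level was below that of Cdh1 in both. Its exons overlap Ulk4 on the opposite strand over 240 bases, and Ulk4 was at 0.523 and 0.501 FPKM in mRNA. Dsg2 and Dsp, described below, also overlap a gene on the opposite strand, Gm16090 over 330 bases and Gm10129 over 360 bases, whose levels were not analysed here. Jup (chr11:100230272-100259077, minus) encodes plakoglobin, a close relative of β-catenin that serves both junctions. Jup mRNA was at 44.6 and 49.2 FPKM and Jup RPF at 92.7 and 78.9 FPKM. Of the pair, Jup was thus the higher in both RNA-seq libraries and the lower in both Ribo-seq libraries.

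Ctnna1 (chr18:35278542-35414427, plus) encodes α-catenin. The RNA-seq libraries gave 71.4 and 56.0 FPKM and the Ribo-seq libraries 256 and 222 FPKM. It was the most abundant of the catenins in both assays, with no overlap with its neighbours in the order. Ctnnd1 (chr2:84440228-84490922, minus) encodes a catenin that binds the cadherin tail near the membrane and slows its uptake. Its mRNA stood at 12.7 and 16.4 FPKM and its RPF at 92.3 and 79.3 FPKM. That made it the least abundant catenin in mRNA, whereas in RPF its libraries overlapped those of Jup.

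Epcam (chr17:88035319-88050446, plus) encodes a transmembrane glycoprotein of epithelial cells. Its mRNA level was 449.995 and 379 FPKM and its RPF level was 1630.27 and 1596.12 FPKM. It was the highest of the 10 genes in every library, 6.50 times the next gene, Ctnna1, in mean mRNA level and 4.69 times the next gene, Cdh1, in mean RPF level. Between 98.85% and 99.04% of gene symbols were lower, depending on the library. Its coding sequence of 948 bases is the shortest of the 10. The positions at which a 28-base RPF could start were 1.23 times the effective length assumed for it, against 1.02 to 1.09 times in the other genes, a difference by which its RPF level is raised relative to theirs if the authors' run used those lengths.

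The desmosomal cadherins were less abundant. Dsg2 (chr18:20716575-20763022, plus), desmoglein, had 7.26 and 7.38 FPKM in mRNA and 36.0 and 25.4 FPKM in RPF. Dsc2 (chr18:20189134-20218055, minus), desmocollin, had 6.70 and 6.36 FPKM in mRNA and 47.8 and 32.2 FPKM in RPF. Dsg2 was above Dsc2 in both RNA-seq libraries and below it within each Ribo-seq library, where replicate 1 was the higher for both. The 2 genes neighbour each other in the RPF order, and their levels across libraries overlapped there.

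Dsp (chr13:38243197-38290446, plus) encodes desmoplakin. It was read at 5.56 and 6.65 FPKM in the RNA-seq libraries and 13.6 and 10.5 FPKM in the Ribo-seq libraries. It was the lowest of the 10 in RPF, below its neighbour Pkp2 in both libraries. Pkp2 (chr16:16213411-16272805, plus) encodes plakophilin, the plaque protein that bridges desmosomal cadherins and desmoplakin. Its mRNA was 7.16 and 15.1 FPKM and its RPF 24.8 and 23.6 FPKM. The 2 RNA-seq libraries were 0.98 apart on the log2 scale, against a median of 0.27 over all genes tested, and the RPF level rested on only about 28.9 and 25.0 RPFs.

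**Figure D1:**
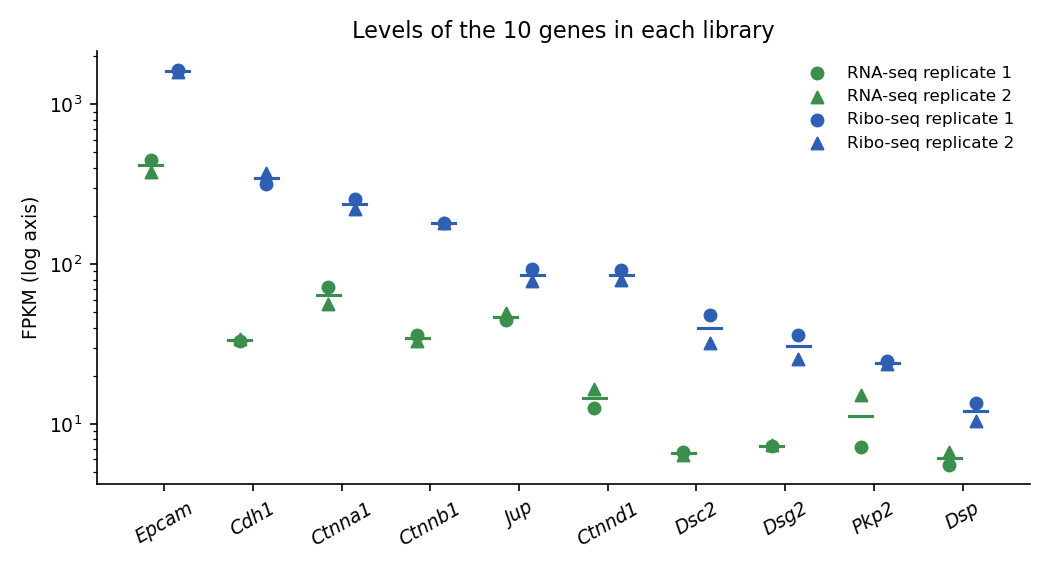
Level of each of the 10 genes in FPKM on a log axis, with circles and triangles for replicates 1 and 2 of RNA-seq (green) and Ribo-seq (blue), and bars for the mean of 2 libraries. Epcam is the highest in every library, and Cdh1 is second in the Ribo-seq libraries but level with Ctnnb1 in the RNA-seq libraries.

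Between assays the order was partly rearranged. In mRNA the libraries of neighbouring genes overlapped for Ctnnb1 and Cdh1, Ctnnd1 and Pkp2, Pkp2 and Dsg2, and Dsc2 and Dsp, while the other 5 neighbouring pairs did not overlap. In RPF only the pairs Jup and Ctnnd1, and Dsc2 and Dsg2, overlapped. The 4 desmosomal cadherin and plaque genes Dsg2, Dsc2, Dsp and Pkp2 were below all 6 other genes in mean RPF level.

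To set RPF against mRNA relative to the other genes, log2(FPKM + 1) was compared between Ribo-seq and RNA-seq. The median difference of 1.26 over 8327 genes tested was subtracted. The middle 50% of those genes lay between −0.76 and 0.79 on that scale. Cdh1 had the largest difference of the 10, 2.06 (SE 0.247, 95% interval 1.38 to 2.74), with an adjusted p of 0.0255 by limma. It was the single gene of the 10 called higher (adjusted p under 0.05 and a difference of at least 1 in size), where 9.13% of all genes tested were called higher. None of the 10 was called lower, where 3.24% of all genes were. In all, 760 genes were higher and 270 lower, 73.8% of the calls being higher, and 699 and 413 with quantile normalization. The Cdh1 call was lost without RNA-seq replicate 1 (2.07, adjusted p = 0.29 by limma) and without RNA-seq replicate 2 (2.07, adjusted p = 0.306), where 0 genes of all those tested were called and 1317 and 1260 had an unadjusted p under 0.05. Over the 12 alternatives tried, its difference ranged from 1.72 to 3.32. The upper end came with no filter and with no centring, where the median stayed in the value, and the others gave 1.72 to 2.08. Over the alternatives that kept all 4 libraries, its adjusted p by limma ranged from 0.00238 to 0.0896.

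Ctnnd1, Dsc2 and Ctnnb1 came next without passing the adjusted test. Ctnnd1 differed by 1.23 (SE 0.275, 0.47 to 1.99, adjusted p = 0.0635 by limma), Dsc2 by 1.16 (SE 0.305, 0.32 to 2.0, adjusted p = 0.0815) and Ctnnb1 by 1.10 (SE 0.237, 0.44 to 1.75, adjusted p = 0.0596). Their intervals lay above 0, so these genes had more RPF per mRNA than the median gene at an unadjusted p under 0.05, as did Epcam. That made 5 of 10 genes with Cdh1, where 21.7% of all genes reached it in that direction, and 0 of 10 in the other, where 14.2% did. Epcam differed by 0.70 (adjusted p = 0.135 by limma). With a mean-variance trend in limma, Ctnnb1 (adjusted p = 0.0174) and Ctnnd1 (adjusted p = 0.0289) were called too. With that trend, 13.6% of all genes tested were called higher. Without Ribo-seq replicate 2, Ctnnd1 was at 1.18 and Dsc2 at 1.28. Without Ribo-seq replicate 1, Ctnnd1 was at 1.03 and Dsc2 at 0.793. Either setting leaves a lone library assumed to vary like the others.

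Dsg2 at 0.65 and Ctnna1 at 0.64 were above the median gene, with intervals that reached below 0. Pkp2 at −0.13, Dsp at −0.39 and Jup at −0.41 were below it, with intervals from −1.28 to 1.03, −1.15 to 0.37 and −1.10 to 0.29. Adjusted p by limma for these 5 genes ranged from 0.187 to 0.85. The median over the 10 genes was 0.68, and 7 of 10 lay above the median of all genes tested. Without RNA-seq replicate 2, Pkp2 was at 0.36, so the side of the median on which it lay rested on that library.

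**Figure D2:**
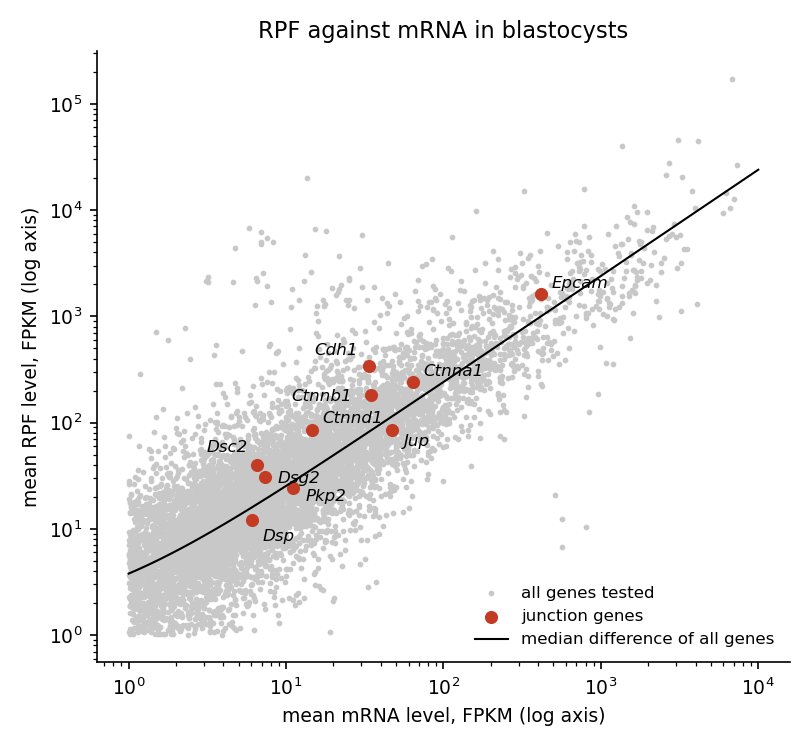
Mean RPF level against mean mRNA level in FPKM, both on log axes, for the genes tested (grey) and the 10 junction genes (red), with a line at the median difference. Cdh1 lies well above the line, and Jup, Dsp and Pkp2 lie just below it.

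**Figure D3:**
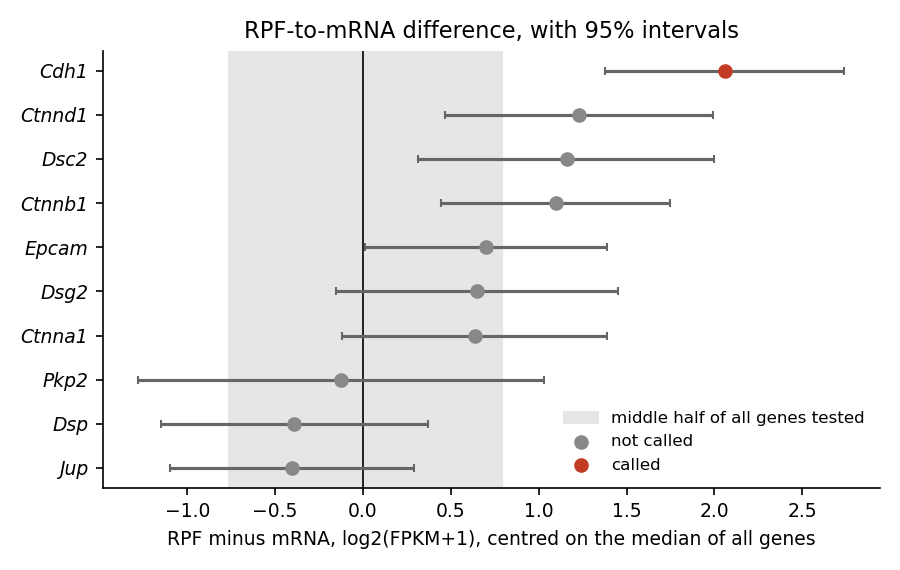
RPF minus mRNA in log2(FPKM + 1), from which the median over the genes tested was subtracted, with 95% intervals from limma and a grey band for the middle 50% of genes. Cdh1, in red, is the single gene called, at 2.06.

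Markers of the cell types of the blastocyst were summed in each library. Of 5 primitive endoderm markers, 1 reached a mean of 1 FPKM in mRNA and 4 in RPF, and the list summed to 12.7 and 9.40 FPKM in mRNA and 156 and 143 FPKM in RPF, with Gata4 and Sox17 at 0.0574 and 0.204 FPKM in RNA-seq replicate 1, at 0 in RNA-seq replicate 2, and at 14.98 and 32.7 FPKM in Ribo-seq replicate 1. The 6 epiblast markers summed to 203 and 127 FPKM in mRNA and to 883 and 969 FPKM in RPF. The 8 trophectoderm markers summed to 3057 and 2842 FPKM in mRNA and 5990 and 5510 FPKM in RPF. The keratins Krt8 and Krt18 carried most of that sum, and the other 6 markers, set apart after their values were seen, summed to 222.5 and 249.7 FPKM in mRNA and to 987.5 and 918 FPKM in RPF. Cdx2 was called higher in RPF, at 2.45 (adjusted p = 0.0225 by limma), and the centred median over the 8 trophectoderm markers was 0.66. Gata6, the only primitive endoderm marker tested, was called higher too, at 1.74 (adjusted p = 0.0325 by limma). The centred median over the 4 epiblast markers tested was larger, at 1.57, and none of them was called. Sox2 and Fgf4, named after their values were seen, were not tested, being below a mean of 1 FPKM in mRNA. Sox2 was at 0.889 and 0.682 FPKM in mRNA and 37.1 and 35.4 FPKM in RPF. Fgf4 was at 0.519 and 0.342 FPKM in mRNA and 18.4 and 5.08 FPKM in RPF, the latter about 4 and 1 RPFs. The part of these differences in the results on the 10 genes was not tested.

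Ratios between genes were formed within each library, which cancels the scaling of a library. Jup over Ctnnb1 was 1.24 and 1.48 in the RNA-seq libraries and 0.509 and 0.439 in the Ribo-seq libraries, so plakoglobin passed from above β-catenin to below it. Ctnnb1 over Cdh1 was 1.08 and 0.981 in mRNA and 0.575 and 0.484 in RPF. The sum of Ctnnb1 and Jup, which compete for the same part of cadherin tails, over Cdh1 was 2.43 and 2.44 in mRNA and 0.867 and 0.697 in RPF. The summed level of these catenins was thus above the level of Cdh1 in mRNA and below it in RPF.

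Ctnna1 over Cdh1 went from 2.16 and 1.66 in mRNA to 0.809 and 0.597 in RPF. Relative to the sum of Ctnnb1 and Jup, Ctnna1 overlapped between assays, at 0.887 and 0.681 in mRNA and 0.932 and 0.857 in RPF. In the desmosome, Dsc2 over Dsg2 was 0.923 and 0.861 in mRNA and 1.33 and 1.27 in RPF, where the counting intervals of the 2 genes overlapped. Dsp over the sum of both cadherins was 0.398 and 0.484 in mRNA and 0.162 and 0.182 in RPF. Pkp2 over Dsp, at 1.29 and 2.27 in mRNA and 1.82 and 2.25 in RPF, overlapped between assays. Of 13 ratios computed, each without overlap had an exact two-sided permutation p of 0.333, which is the smallest that 2 libraries against 2 can give.

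**Figure D4:**
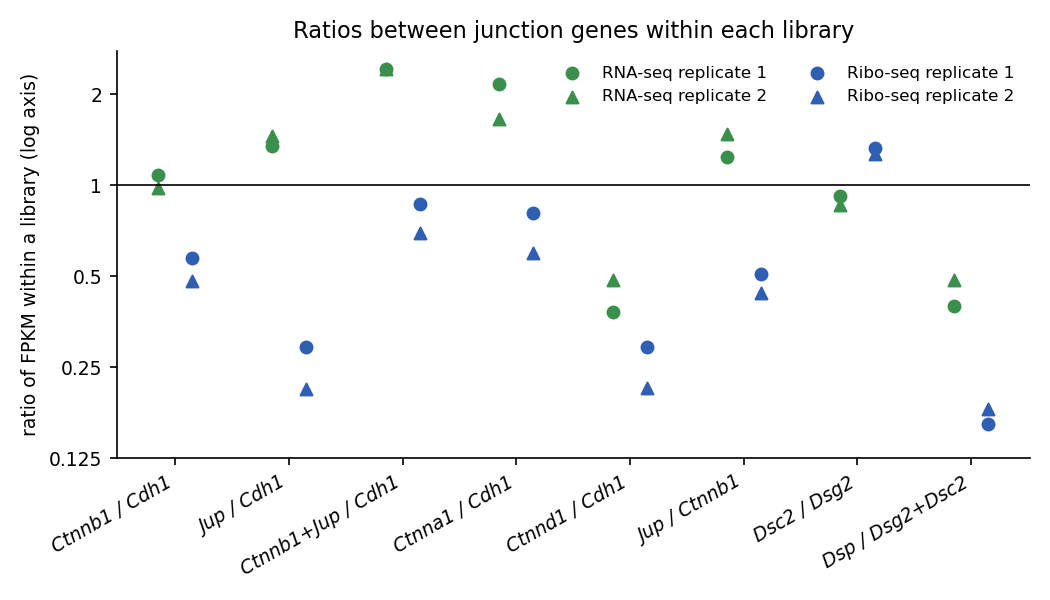
Ratio of FPKM between junction genes within each library on a log axis, with circles and triangles for replicates 1 and 2 of RNA-seq (green) and Ribo-seq (blue), and a line at a ratio of 1. Jup over Ctnnb1 falls from above 1 to below it. Dsc2 over Dsg2 goes the other way, although the RPF counting intervals of these 2 genes overlap.

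The related genes were taken from 5 lists. For comparison, 9.13% of all genes tested were called higher and 3.24% lower. An unadjusted p under 0.05 by limma was reached by 21.7% of all genes in the higher and 14.2% in the lower direction. Of 23 other adherens junction genes, 13 reached a mean of 1 FPKM in mRNA and 14 in RPF, and 13 were tested, of which 0 were called by limma in either direction and 2 in each direction had an unadjusted p under 0.05. The highest in RPF were Zyx, an actin regulator at focal adhesions, at 181 and 208 FPKM, Nectin2, an adhesion molecule, at 55.5 and 74.3 FPKM, and Vcl, which reinforces the α-catenin link to actin, at 48.0 and 43.9 FPKM. Among other cadherins, Cdh3 was at 1.63 and 1.17 FPKM in mRNA and 7.43 and 7.27 FPKM in RPF, and Cdh2 at 0.0596 and 0 in mRNA and 0 and 0.818 in RPF, about 1 RPF in all.

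Of 12 other desmosome genes, 7 were listed at 0 in all 4 libraries (Dsg1a, Dsg1b, Dsg1c, Dsg3, Dsg4, Dsc1 and Pkp1) and 9 in both Ribo-seq libraries. Dsg1a, Dsg1b and Dsg1c are close copies, whose reads the counting could split. The 6 desmosomal cadherins among these 7 were not detected at this depth. On a coding sequence of 1000 bases, 3 RPFs amount to 7.03 and 7.75 FPKM in the 2 Ribo-seq libraries. The coding sequences of the 6 cadherins are longer, from 2661 bases (Dsc1) to 3303 bases (Dsg4). Upper ends of their exact Poisson intervals, covering counting error only, were 2.23 to 2.81 FPKM in Ribo-seq replicate 1. In Ribo-seq replicate 2 these upper ends were 2.46 to 3.1 FPKM. Dsc3 was at 0 in mRNA and at 2.42 and 0 FPKM in RPF, and Ppl at 0.0304 and 0.321 FPKM in mRNA and 0 and 0.813 FPKM in RPF. Perp, a membrane protein of desmosomes, was the exception at 107 and 55.5 FPKM in mRNA and 93.9 and 196 FPKM in RPF, with the lower value in a different replicate of each assay. It was the only gene of that list tested, at −0.45, and was not called.

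All 12 genes that process or partner E-cadherin and EpCAM reached 1 FPKM in both assays. Furin, a protease that cleaves the E-cadherin precursor, was the only gene of the list called, at 1.34 (SE 0.253, adjusted p = 0.0484 by limma), with 2.13 and 2.35 FPKM in mRNA and 20.6 and 17.01 FPKM in RPF. None was called lower, and 5 of 12 genes were higher and 1 lower at an unadjusted p under 0.05. Highest in RPF were Rab11a, which recycles E-cadherin to the surface, at 848 and 617 FPKM, Cldn7, an EpCAM-binding claudin, at 545 and 515 FPKM, and Spint2, a protease inhibitor, at 316 and 402 FPKM.

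Of 16 genes of β-catenin destruction and nuclear partnership, 10 were tested, 0 were called by limma, and 3 were higher and 2 lower at an unadjusted p under 0.05. The highest in RPF were the kinase Csnk1a1 at 151 and 116 FPKM, the ubiquitin ligase subunit Btrc at 120 and 88.5 FPKM, and the kinase Gsk3b at 59.96 and 25.3 FPKM. Lef1, a nuclear partner of β-catenin, was at 0.348 and 0 in mRNA and 0 in both RPF libraries. Of 12 transcription factors linked to Cdh1, only 3 were tested and 0 called, 1 being higher at an unadjusted p under 0.05. Those highest in RPF were Klf5, at 521 and 386 FPKM, Grhl2, at 22.3 and 40.6 FPKM, and Grhl1, at 20.5 and 36.6 FPKM. Of the 7 Snai, Zeb and Twist genes, which include repressors of Cdh1, Snai2, Zeb2 and Twist2 were listed at 0 in all 4 libraries. Snai1 was at 3.16 and 6.96 FPKM and Snai3 at 2.83 and 6.24 FPKM in RPF, each about 1 and 2 RPFs. Zeb1 was at 0.626 and 0 FPKM in RPF, about 1 RPF in all, and Twist1 at 0 in both Ribo-seq libraries.

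**Figure D5:**
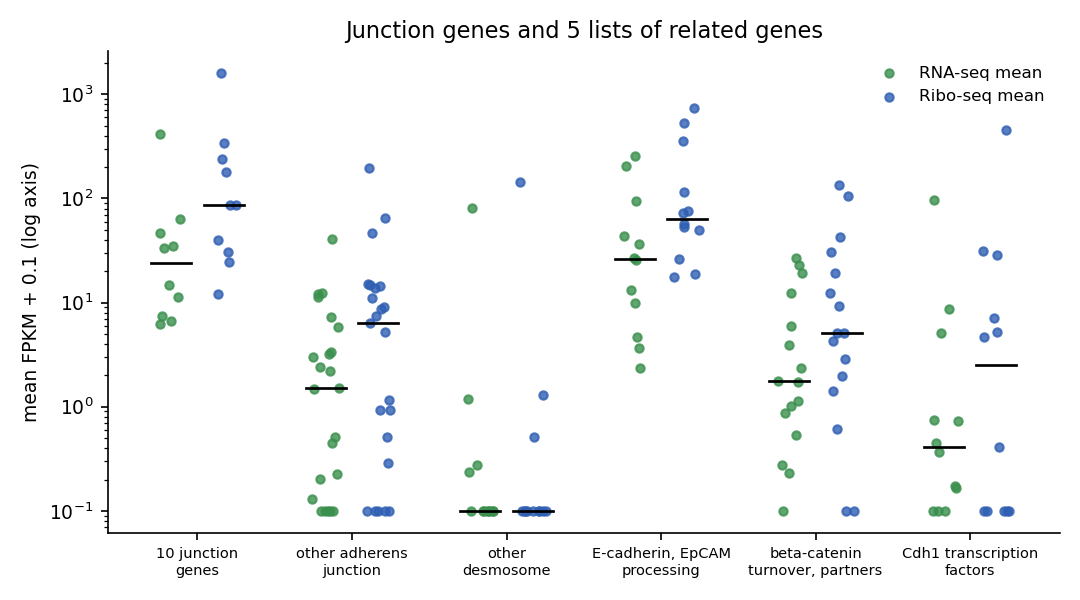
Mean FPKM plus 0.1 of each gene on a log axis, for the 10 junction genes and 5 lists of related genes, with green for RNA-seq, blue for Ribo-seq and bars for the median. The desmosome list sits at 0 apart from a few genes, while the 10 junction genes and the processing genes lie well above it.

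Promoter windows, 250 bases before to 50 bases after the start site on the coding strand, were read from RefSeq on GRCm38.p6 for 5 of the 10 genes, Ctnnb1, Jup, Ctnnd1, Epcam and Dsp. They are shown for the 2 genes that hold the E-box CAGGTG, bound by the Snai and Zeb repressors whose levels were given above, on either strand, and capitals mark the matches. The windows are chr17:87635729-87636028 (plus) for Epcam and chr13:38151044-38151343 (plus) for Dsp.
Epcam: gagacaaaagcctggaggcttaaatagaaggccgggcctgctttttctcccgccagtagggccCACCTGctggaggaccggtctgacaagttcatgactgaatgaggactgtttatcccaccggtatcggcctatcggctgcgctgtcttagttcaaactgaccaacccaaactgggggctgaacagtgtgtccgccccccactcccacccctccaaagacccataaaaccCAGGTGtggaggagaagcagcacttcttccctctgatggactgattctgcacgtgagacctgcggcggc
Dsp: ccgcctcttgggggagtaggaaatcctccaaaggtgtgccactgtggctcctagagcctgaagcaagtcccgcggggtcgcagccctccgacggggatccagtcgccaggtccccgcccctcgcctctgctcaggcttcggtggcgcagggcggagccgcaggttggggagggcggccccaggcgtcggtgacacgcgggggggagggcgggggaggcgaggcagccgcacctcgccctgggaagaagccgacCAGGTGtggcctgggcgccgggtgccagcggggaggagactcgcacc
Epcam held 2 matches and Dsp 1, and the windows of Jup, Ctnnb1 and Ctnnd1 held 0, where 20.2% of 32851 windows of the same length held it. AACCNGTT, the motif of the grainyhead-like factors Grhl1 and Grhl2, which does not overlap CAGGTG, was found in none of the 7 windows of these genes and in 2.1% of all windows.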

How the data were processed

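For 2 RNA-seq and 2 Ribo-seq libraries of blastocysts, the authors deposited FPKM per gene symbol, from Cufflinks 2.2.1 on mm9 (NCBIM37), over transcripts for RNA-seq and coding sequence for Ribo-seq. RPFs were made by RNase I digestion in cycloheximide. The submitters' notes also list Trim Galore 0.4.2, STAR 2.5.3a, cutadapt 1.14 and Bowtie2 2.2.2. The highest value was used where a symbol repeated (345 symbols, none of the 10 genes). FPKM are not counts, so the test was limma 3.58.1 (R 4.3.3) on log2(FPKM + 1), Ribo-seq minus RNA-seq, for genes with a mean of at least 1 FPKM in both assays, centred on their median and adjusted by Benjamini-Hochberg. On that scale a fold change understates the change of low genes. Fragment totals were inferred from the steps between low values, assuming Cufflinks effective lengths (mean 200, SD 80 bases), and 86.0% and 85.3% of Ribo-seq but only 65.3% and 65.0% of RNA-seq values fell within 0.1 of a whole fragment (chance 20%). Replicates correlated at Spearman 0.94 in mRNA and 0.898 in RPF over 20714 symbols. Named genes were the 10 genes and, in each list, the 3 highest in RPF and those called. Cdh2, Cdh3, Dsc3, Ppl, Lef1, Snai1, Snai3, Zeb1, Twist1 and genes listed at 0 were named after their values were seen. Genes and lists were chosen with earlier results of these data known. Alternatives were the pseudocount, filters, quantile normalization, no centring, summed repeats, a variance trend, a replicate block and each library left out. Scripts were tested on simulated data. In simulated libraries, 155 of 8013 genes tested were changed. Of these, limma called 1.2% of those changed by 2 in log2 and 58% of those changed by 4. Of its calls in the simulation, 6.82% were of unchanged genes. Such shares depend on how many genes change and may differ in these data, where 1030 of 8327 genes were called. A gene that was not called may therefore still differ. Of 28-base windows of the coding sequence, 14 of Jup, 18 of Ctnna1 and 5 of Dsp occurred at 2 places in the genome and none of the other 7 genes' did.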

Additional observations from a re-analysis of the deposited data

How the results depend on the processing

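With 2 libraries per assay and 484287 to 533547 RPFs per Ribo-seq library, the counts depended on the settings, and apart from the settings that leave the median in, the cause was not tested. Genes higher and lower were 760 and 270, against 413 and 130 with a pseudocount of 0.1, 1961 and 123 with no filter, 620 and 413 at a mean of 10 FPKM, 699 and 413 with quantile normalization, 4113 and 65 with no centring, 1134 and 477 with a variance trend, and 0 to 1359 and 0 to 1287 with a library left out. Junction genes called higher were 1 of 10, where 9.13% of 8327 genes were. With no filter (where the median subtracted is 0) they were 4 of 10, where 9.47% of 20714 genes were. At a mean of 10 FPKM they were 3 of the 7 tested, where 17.1% of 3617 genes were. They were 7 of 10 with no centring, where 49.4% of all genes were, and 3 of 10 with a trend, where 13.6% were. No junction gene was called lower in any setting. Without a filter or without centring, the median difference of 1.26 stayed in the value of every gene alike, which by construction put Jup at 0.855, Dsp at 0.869 and Pkp2 at 1.13. Pkp2 ranged from −0.594 to 0.359 with a library left out. The mean mRNA level of Pkp2, 11.1 FPKM, was 7.16 FPKM without RNA-seq replicate 2 and 15.1 FPKM without replicate 1.

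Replicate numbers are shared between assays, but the labels do not say that they mark the same embryos, and replicate deviations correlated at 0.0099 between assays over 8327 genes, from 2 pairs. With the replicate number as a block, 27 genes were higher, 1 was lower and 0 junction genes were called, Cdh1 having an adjusted p of 0.0896 by limma.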
